A study of Mus musculus with 16 samples.

Results

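Of 16 libraries of mouse sperm RNA, 8 carried the caput epididymis transcript Gpx5 without a large excess of the sperm transcript Prm1, and diets were compared within these 8. They were chosen by measured values: Gpx5 of at least 100 CPM, the counts of a gene divided by the gene counts of its library and scaled as counts per 1e6, and Prm1 under 5000 CPM. The rule kept 4 libraries of males fed a high-fat diet (HFD 2, 3, 5 and 6) and 4 of males fed a control diet (CD 2, 4, 6 and 7), and left 4 libraries of each diet outside. In both groups feeding began at an age of 3 weeks and lasted 9 weeks. Motile sperm were isolated at its end, and cDNA was amplified from 2 ng of DNase-treated total RNA. The high-fat food was a modified form of the D12492 diet and the control food its matched control, and the sources used here give neither the strain nor the way of collecting the sperm. The series describes 8 mice per diet, so each library was taken as 1 male. The study addressed paternal obesity and the early embryo, and the comparison here asks which transcripts differ with diet among preparations with Gpx5 above this limit.

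Sperm leave the testis immotile and mature in the epididymis, a long duct whose first regions, the initial segment and the caput, secrete defensins, lipocalins, cystatins and antioxidant enzymes onto the passing cells. Gpx5 encodes a glutathione peroxidase secreted by the caput epithelium. Prm1 encodes a protamine, the small basic protein that replaces histones in the sperm nucleus, and its RNA is made in spermatids. A preparation of sperm therefore holds RNA of the germ line and, where duct cells or their vesicles come along, RNA of the epididymis. In such bulk RNA, fewer cells of a type and less RNA per cell cannot be told apart.

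Gene counts of the 8 libraries ran from 2721022 in HFD 5 to 7783981 in CD 2, so that 1 CPM stood for 2.72 to 7.78 reads. Between 16156 and 17796 genes had at least 1 count. Of all reads in a library's column, 10.8% to 20.1% were assigned to genes and 58.0% to 67.9% to no annotated feature. The ribosomal RNA precursor Rn45s took 2.31% to 20.7% of gene counts. The reads carry no molecular identifiers, so amplification copies were counted like separate molecules. Over the 8 libraries, the genes with the most reads after Rn45s were the epididymal genes Spink8, a protease inhibitor, and Crisp1, a sperm-coating protein.

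Gpx5 and Prm1 set the membership, and their levels are a description only. On the gene-total scale Gpx5 stood at 2681, 260, 7427 and 6453 CPM in HFD 2, 3, 5 and 6 and at 1941, 1203, 246 and 1007 CPM in CD 2, 4, 6 and 7. CD 6 and HFD 3 lay just inside the limit, while the closest library below it, CD 1, had 28.4 CPM. Prm1 reached 1184 CPM in HFD 5, the highest member, and 9276 CPM in HFD 8, which the limit on Prm1 left out although its Gpx5 was 1754 CPM. A Gpx5 limit of 50 or of 200 CPM picked the same 8 libraries. Libraries under the limit held other caput transcripts: in HFD 1, HFD 7 and CD 1 Lcn5 stood at 5046, 5943 and 5500 CPM and Spag11a at 722, 1094 and 676 CPM. Their sums over the caput list without Gpx5 were 16415, 16348 and 16240 CPM, above the 12992 and 13256 CPM of HFD 3 and CD 6 inside the rule.

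**Figure D1:**
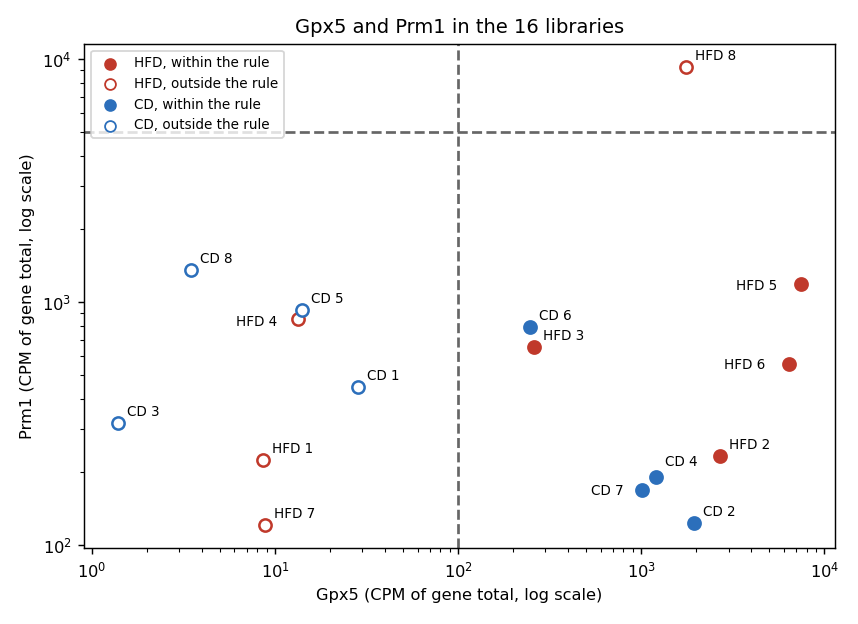
Gpx5 against Prm1 in the 16 libraries, both in CPM of the gene total on log axes, with the limits of 100 and 5000 CPM as dashed lines. Filled points are the 8 libraries within the rule. HFD 3 and CD 6, at 260 and 246 CPM of Gpx5, lie closest to the limit on the inside.

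The caput genes themselves did not run in parallel with Gpx5 across the 8 libraries. The lipocalin Lcn5, an abundant product of the caput and beyond, stood at 8419, 3914, 5737 and 9680 CPM of the gene total in HFD 2, 3, 5 and 6 and at 17106, 7787, 4830 and 8355 CPM in CD 2, 4, 6 and 7. It was abundant in every member library, as were the defensins Defb30 and Defb42, the receptor tyrosine kinase Ros1 of the initial segment epithelium, and Spag11a. The cystatin Cst11, in contrast, had 27.0, 118 and 118 CPM in HFD 3, 5 and 6 and 71.4 CPM in CD 6, against 3.30 CPM in HFD 2 and 1.67, 2.26 and 0 CPM in CD 2, 4 and 7. Lcn9, a further lipocalin, was at 4.55, 33.8, 40.6 and 57.2 CPM in HFD 3, 5, 6 and CD 6, and at 0 in the other 4. Lcn8 had 13.0, 41.5, 46.8 and 109 CPM in the first 4 of these libraries and at most 2.96 CPM in the others. The transcript 9230104L09Rik followed the same libraries, with 39.6, 68.4, 120 and 67.8 CPM in HFD 3, 5, 6 and CD 6 and at most 0.899 CPM in the others. The ribonuclease Rnase10 did so less sharply, at 9.46 to 33.5 CPM in the 4 and 0.388 to 4.50 CPM elsewhere. Adam28, a membrane protease, was at 15.4, 5.72 and 62.5 CPM in HFD 5, HFD 6 and CD 6 and at 0 in HFD 3. Other listed relatives did not keep to these libraries either. Lcn10 was at 8.45, 9.88 and 9.45 CPM in HFD 5, HFD 6 and CD 6 and at 0 in HFD 3. Cst12 was at 33.9 CPM in CD 6 but at 2.10, 2.94 and 0 CPM in HFD 3, 5 and 6. Lcn6 was higher in CD 4 and CD 7, at 13.6 and 10.4 CPM, than in HFD 3, at 6.655 CPM.

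The data thus went against a single caput class, and libraries outside the rule were not free of caput RNA. The 8 libraries are called Gpx5-rich below as a name for the rule only, since HFD 8 outside it had 1754 CPM of Gpx5. HFD 3, 5 and 6 and CD 6 held the Cst11, Lcn8 and Lcn9 transcripts, and HFD 2 and CD 2, 4 and 7 held Gpx5 with little or none of them. This division was made after the values were seen, and not every listed caput gene kept to it. It falls 3 to 1 across the diets. Diet and the presence of these transcripts are therefore partly confounded and cannot be told apart in full with 8 libraries. For part of the genes and lists, values from a fit with log2 Cst11 CPM as a covariate are given below. That fit was also chosen after the data were seen. The composition, the whole profile and the comparison with libraries outside the rule had no such fit.

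**Figure D2:**
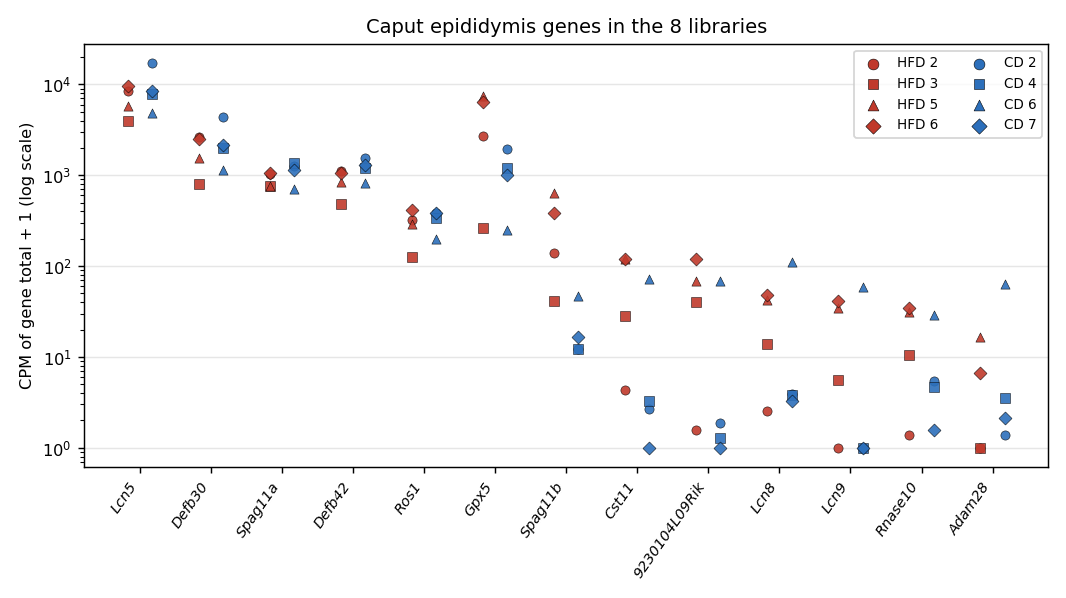
CPM of the gene total plus 1, on a log axis, of 13 caput genes in the 8 Gpx5-rich libraries, HFD in red and CD in blue, with 1 marker shape per library. Lcn5 to Ros1 were present in every library, whereas Cst11, 9230104L09Rik, Lcn8 and Lcn9 were high in HFD 3, 5 and 6 and CD 6 and near 0 in the other 4.

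Germ cell transcripts also varied among the Gpx5-rich libraries. Without Prm1, the 50 late spermatid genes, which encode protamines, transition proteins and parts of the flagellum and acrosome, summed to 4983, 8436, 10742 and 8287 CPM of the gene total in HFD 2, 3, 5 and 6. In CD 2, 4, 6 and 7 they summed to 2893, 3507, 11186 and 3647 CPM. CD 6 lay above all 4 HFD libraries and the other 3 CD libraries lay below all 4 HFD libraries. Meiotic transcripts gave the same order of groups, with 504 to 788 CPM in HFD and 323, 266 and 408 CPM in CD 2, 4 and 7 against 938 CPM in CD 6. Leukocyte transcripts summed to 434, 1001, 1154 and 1188 CPM in HFD 2, 3, 5 and 6 and to 317, 703, 1116 and 463 CPM in CD 2, 4, 6 and 7. The 4 libraries with the Cst11 group of caput transcripts were thus also the 4 highest in late spermatid, meiotic and leukocyte sums. Markers of stroma, endothelium and muscle summed to 383 to 1118 CPM, a range like that of the leukocyte sums. The sums were 124 to 174 CPM for Sertoli and Leydig cells, 45.1 to 124 CPM for erythroid cells and adipocytes, and 20.6 to 47.2 CPM for accessory glands.

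Tested over libraries, no measure of composition passed the test between the diets. The late spermatid sum without Prm1 was higher in HFD by 0.79 on the log2 scale (exact permutation p = 0.143, two-sided), the meiotic sum by 0.64 (exact permutation p = 0.200) and the leukocyte sum by 0.59 (exact permutation p = 0.314). The leukocyte difference was 0.30 without CD 2 and 0.93 without HFD 2. The caput sum without Gpx5 differed by -0.17 (exact permutation p = 0.714) and the sum of abundant duct genes by 0.07 (exact permutation p = 0.886). Over the 10 measures every Benjamini-Hochberg adjusted p was 1, and 4 libraries against 4 cannot give an exact p below 0.0286. CD 6 decided the size of the germ cell differences: without it the late spermatid difference was 1.23 (exact permutation p = 0.0571) and the meiotic difference 1.02 (exact permutation p = 0.0286, the smallest these 7 libraries allow). Differences in spermatid genes are therefore given beside these sums in what follows.

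The whole profile was compared next, over the 13201 genes that passed the filter on low counts. The mean Euclidean distance in log2 CPM was 100.3 between HFD libraries, 99.6 between CD libraries and 99.9 between a library of each diet. Diet accounted for 14.5% of the summed squared distance, with a pseudo-F, the ratio of distance between to within diets, of 1.02 (exact permutation p = 0.343). The first principal component, with 32.0% of the variance, ran from CD 2 at -51.3 and CD 4 at -40.2 through CD 7 and HFD 2 at -23.9 and -22.3 to HFD 6 at 9.30 and HFD 5 at 22.5, and ended with CD 6 at 51.6 and HFD 3 at 54.3. Its lower 4 libraries were those without the Cst11 group of transcripts and its upper 4 those with it. The upper 4 were also the highest in late spermatid, meiotic and leukocyte sums. With all genes ranked by loading on this component, the median rank was 97.1% for cystatins, 95.1% for late spermatid and 93% for meiotic genes. It was 92.2% for leukocyte, 87.5% for stroma and 49.8% for caput genes. Without CD 6 the pseudo-F was 1.54 (exact permutation p = 0.0571).

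Gene by gene, edgeR's quasi-likelihood test with Benjamini-Hochberg adjustment called 0 of 13201 genes (0%) between the diets. At an unadjusted p under 0.05, 233 genes (1.77%) were higher in HFD and 194 (1.47%) lower. In 98 genes (0.742%) all 4 HFD libraries lay above all 4 CD libraries, and in 200 genes (1.52%) they lay below. DESeq2 called 1 gene, Ehd3, and limma-voom called 0. CD 6 weighed on these counts: without it, 1031 genes were higher and 320 lower at an unadjusted p under 0.05, and 0 passed after adjustment. The text below gives 23 genes with the smallest unadjusted p, 17 of them higher in HFD and 6 lower, and values per gene are edgeR's CPM with library sizes scaled by trimmed means of M-values (TMM). None of these differences passed the adjusted threshold, and they are given as measured values.

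Ehd3, a protein of endosome recycling at chromosome 17, 73804134 to 73832094 (mm10), gave the smallest p. It stood at 95.6, 79.3, 127 and 87.6 CPM in HFD 2, 3, 5 and 6 and at 276, 206, 230 and 190 CPM in CD 2, 4, 6 and 7. The groups did not overlap. CD 6, which resembled HFD 3, 5 and 6 in the Cst11 group and in germ cell sums, lay with the other CD libraries here. The log2 fold change, HFD minus CD, was -1.21 ± 0.20 (SE; 4 libraries per diet), with an unadjusted p of 3.71e-05 and an adjusted p of 0.490 in edgeR. DESeq2 gave -1.20 with an adjusted p of 0.00104. With Cst11 as a covariate the value was -1.30, with the late spermatid sum -1.24, and leaving out 1 library at a time moved it between -1.32 and -1.10. In the 8 libraries outside the rule the same contrast was -0.15 ± 0.59, and the difference of -1.05 ± 0.83 from the Gpx5-rich libraries had an unadjusted p of 0.225 and an adjusted p of 0.911 in edgeR's test of that difference.

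The other 5 genes lower in HFD were of several kinds. Akr7a5, an aldehyde reductase, had 43.3, 27.1, 38.2 and 43.3 CPM in HFD 2, 3, 5 and 6 and 56.4, 79.2, 73.0 and 64.9 CPM in CD 2, 4, 6 and 7, a log2 fold change of -0.84 ± 0.23. Psme1, a subunit of the interferon-inducible proteasome activator, had 67.7, 40.7, 40.9 and 51.3 CPM in HFD and 138, 81.1, 84.2 and 72.0 CPM in CD, a log2 fold change of -0.90 ± 0.26. For both, the highest HFD library lay under the lowest CD library, by the smaller margin in Psme1. Idua, a lysosomal enzyme of glycosaminoglycan breakdown, had 4.68 to 7.21 CPM in HFD and 9.46 to 26.4 CPM in CD, a log2 fold change of -1.46 ± 0.42. Rnf26, a ubiquitin ligase of the endoplasmic reticulum, had 4.41 to 8.96 CPM in HFD and 15.7 to 19.4 CPM in CD, a log2 fold change of -1.22 ± 0.35. Gse1 had 37.8 to 50.9 CPM in HFD and 66.9 to 85.1 CPM in CD, a log2 fold change of -0.70 ± 0.20. In all 5, picked by their p, the diets did not overlap (1.52% of all genes in this direction), and edgeR's adjusted p was 0.999. Idua, Rnf26, Gse1 and Psme1 each overlap another annotated gene, and the counting does not show from which strand the reads came.

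Of the 17 genes higher in HFD, Ccin encodes calicin, a protein of the sperm head cytoskeleton, and it stood at 7.21, 28.5, 16.0 and 9.53 CPM in HFD 2, 3, 5 and 6 and at 1.94, 1.23, 4.20 and 5.20 CPM in CD 2, 4, 6 and 7. Its log2 fold change was 2.28 ± 0.58, and the diets did not overlap. Izumo2, a relative of the sperm fusion protein Izumo1, stood at 12.2, 21.01, 19.9 and 18.3 CPM in HFD and at 4.67, 5.22, 10.4 and 7.39 CPM in CD, a log2 fold change of 1.37 ± 0.38. Calr3, the calreticulin of the testis, stood at 4.62, 16.6, 3.12 and 12.4 CPM in HFD and at 2.20, 0.921, 2.80 and 1.64 CPM in CD, a log2 fold change of 2.24 ± 0.64. In CD 6, whose late spermatid sum was above that of every HFD library, Izumo2 was the highest of the CD libraries and Ccin the second highest. The further transcripts Fam209 (1.83 ± 0.46), 1700093K21Rik (1.84 ± 0.42), Ms4a5 (1.55 ± 0.43), Cldnd2 (2.16 ± 0.60), 4921530L21Rik (2.16 ± 0.60) and Dnajb7 (1.26 ± 0.37) were also higher in HFD on this scale, and in 1700093K21Rik and Ms4a5 CD 6 lay above the lowest HFD library. Gm11213 (2.13 ± 0.54) and Gm19395 (1.72 ± 0.50), an RNA antisense to Cep85l, did not overlap between the diets.

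The remaining genes higher in HFD were of several kinds. Ednrb, an endothelin receptor, stood at 15.4, 48.8, 30.4 and 51.5 CPM in HFD 2, 3, 5 and 6 and at 6.09, 11.7, 18.5 and 7.12 CPM in CD 2, 4, 6 and 7, a log2 fold change of 1.76 ± 0.44, and CD 6 lay above HFD 2. Slc6a19, a transporter of neutral amino acids, stood at 5.55, 9.49, 7.79 and 12.6 CPM in HFD and at 2.07, 0.921, 2.24 and 2.74 CPM in CD, a log2 fold change of 2.12 ± 0.53. Apoh, the plasma protein beta-2-glycoprotein I, stood at 3.51, 4.74, 7.404 and 3.35 CPM in HFD and at 1.56, 0.614, 0.840 and 0.547 CPM in CD, a log2 fold change of 2.28 ± 0.63. For Slc6a19 and Apoh the diets did not overlap, at levels where 1 CPM is only a few reads. Trf, which encodes the iron carrier transferrin, stood at 31.6, 67.4, 62.7 and 39.2 CPM in HFD and at 24.5, 25.8, 29.9 and 20.3 CPM in CD, a log2 fold change of 0.99 ± 0.29. Ctnna2, a catenin, had 33.5 to 63.6 CPM in HFD and 24.1 to 33.9 CPM in CD, a log2 fold change of 0.94 ± 0.26. Each of the 17 genes had an adjusted p of 0.999 in edgeR's test. Among them Slc6a19, Apoh, Trf, Ctnna2, Calr3, Ms4a5, Dnajb7, Gm19395 and Spag11b each overlap another annotated gene, with the same limit on the origin of reads.

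**Figure D3:**
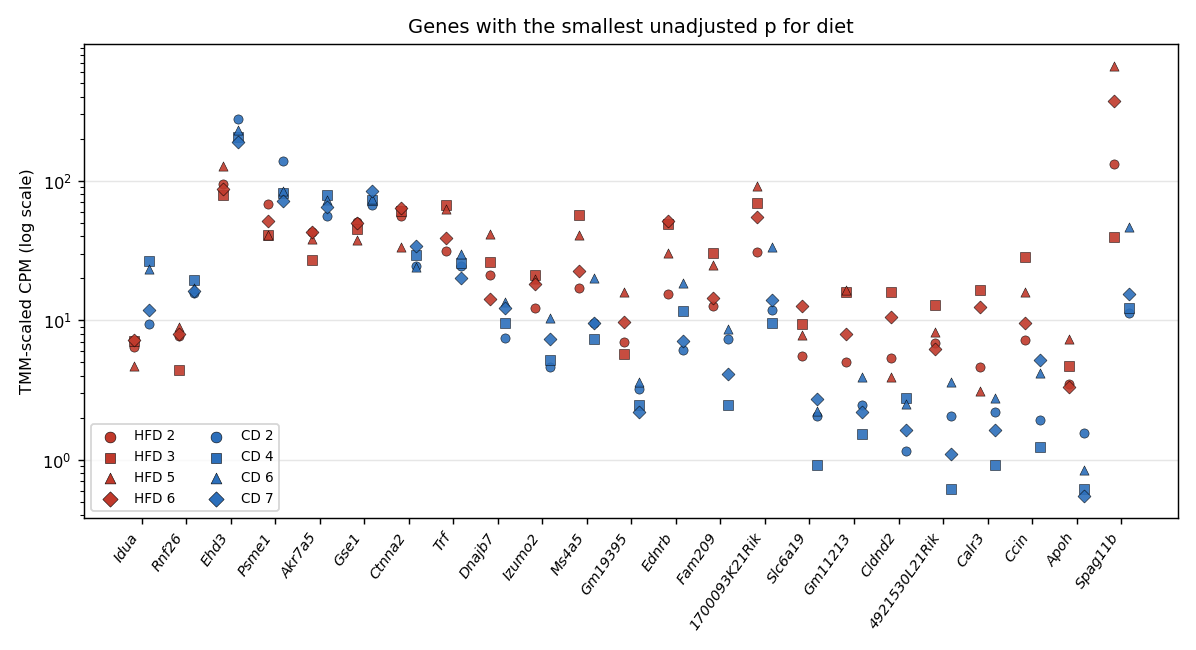
TMM-scaled CPM, on a log axis, of 23 genes with the smallest unadjusted p for diet in the 8 Gpx5-rich libraries, ordered by log2 fold change, HFD in red and CD in blue, 1 marker shape per library. The genes were picked by that p, so the 18 of 23 in which the diets do not overlap (over all genes 0.742% higher and 1.52% lower) only describe that choice, and none passed the adjusted threshold in edgeR.

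These genes were picked in a fit without covariates, and their values with 3 covariates are given as a description. With Cst11 as a covariate, the log2 fold change was smaller in 16 of the 17 genes higher in HFD, and their median went from 1.84 to 1.47. With the late spermatid sum as a covariate it was smaller in 16 of the 17, and the median was 1.43. The exception in both fits was Ctnna2. Among the 6 genes lower in HFD, 2 had a smaller value with Cst11 and 2 with the late spermatid sum, and the median of -1.06 became -1.08 and -1.05. With the caput sum without Gpx5 as a covariate, 15 of the 17 higher genes and 5 of the 6 lower genes had a smaller value, with medians of 1.70 and -1.01. 1700093K21Rik went from 1.84 to 1.21 with Cst11 and to 1.15 with the late spermatid sum, and Ednrb from 1.76 to 1.10 and 1.17. Apoh went from 2.28 to 2.07 and 2.19.

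Spag11b, a defensin-like secretory protein of the proximal epididymis, had the largest log2 fold change of the 23. The gene lies at chromosome 8, 19140759 to 19143010 (mm10), and overlaps the predicted gene Gm45826. It stood at 132, 39.3, 670 and 375 CPM in HFD 2, 3, 5 and 6 and at 11.3, 12.3, 46.7 and 15.3 CPM in CD 2, 4, 6 and 7. HFD 2, 5 and 6 lay above all CD libraries, but HFD 3 lay below CD 6. The log2 fold change was 3.84 ± 0.92 (SE; 4 libraries per diet), with an unadjusted p of 0.00316 and an adjusted p of 0.999 in edgeR. It was 2.72 with Cst11 and 2.88 with the late spermatid sum as a covariate, and 3.15 to 4.55 with 1 library left out, the highest without CD 6. Spag11a, the neighbouring gene of the same family, did not share it, with 980, 733, 811 and 1054 CPM in HFD and 1289, 1483, 706 and 1123 CPM in CD and a log2 fold change of -0.36 ± 0.23. Reads without a unique alignment, 18.6% to 30.7% of all reads in the 8 libraries, were counted to no gene. Reads shared by close family members could thus be missing from both. Of 2 further genes known from earlier results, Pbld2 had 3.90 to 14.4 CPM in HFD and 14.4 to 36.2 CPM in CD, a log2 fold change of -1.28 ± 0.43 (edgeR adjusted p = 0.999), and Zfp641 did not pass the filter.

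Spag11b followed Gpx5 only in part. On the gene-total scale Spag11b amounted to 5.18%, 15.6%, 8.51% and 5.87% of Gpx5 in HFD 2, 3, 5 and 6 and to 0.576%, 0.939%, 18.8% and 1.56% in CD 2, 4, 6 and 7. The 2 libraries at the lower edge of the Gpx5 rule, HFD 3 and CD 6, had the highest ratios. The ratio therefore did not split by diet over all members. Among the others HFD 2, 5 and 6 lay above CD 2, 4 and 7, but this grouping was made after the values were seen. HFD 8, left out by its Prm1 level, had 31.1%. The further libraries outside the rule, with Gpx5 of at most 28.447 CPM, did not split by diet either. They had, for example, 73.177% in HFD 1, 3.998% in HFD 4, 239.986% in CD 3 and 9.617% in CD 5. HFD 2 differed from CD 2, 4 and 7 in Spag11b while sharing with them the near absence of Cst11, Lcn8 and Lcn9. These ratios rest on Gpx5, which chose the libraries, and are given without a test.

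The caput list was then read gene by gene against the background of all genes tested, of which 6189 had a positive and 7012 a negative log2 fold change, with a median of -0.02. Gpx5 and Prm1, which set the membership, were left out of all lists. Of 43 further caput genes listed, 42 were in the table and 38 passed the filter. Of these 38, 25 were positive and 13 negative, with a median of 0.29, and 0 passed the adjusted threshold in edgeR. The median was 0.01 without HFD 6, 0.09 without HFD 5 and 0.13 without CD 7. It was -0.05 with Cst11 as a covariate, a gene of the list itself that was chosen after its division of the libraries was seen. At an unadjusted p under 0.05, 4 were higher and 0 lower, beside 1.77% and 1.47% of all genes. These were Spag11b, already known from earlier results, and the defensins Defb20, Defb37 and Defb38, of which Defb20 and Defb37 are named after their values were seen. Beta-defensins are antimicrobial peptides that also coat sperm.

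Defb38 stood at 498, 380, 332 and 288 CPM in HFD 2, 3, 5 and 6 and at 283, 280, 160 and 239 CPM in CD 2, 4, 6 and 7. All HFD libraries lay above all CD libraries, the closest pair being HFD 6 and CD 2. The log2 fold change was 0.64 ± 0.22 (edgeR adjusted p = 0.999), and it was 1.01 with Cst11 and 1.02 with the late spermatid sum as a covariate. Defb37 stood at 369, 371, 301 and 286 CPM in HFD and at 249, 325, 169 and 219 CPM in CD, a log2 fold change of 0.47 ± 0.21, with CD 4 above HFD 5 and 6. Defb20 stood at 46.1, 76.6, 209 and 219 CPM in HFD and at 83.6, 52.5, 50.1 and 29.8 CPM in CD, a log2 fold change of 1.34 ± 0.47, with only HFD 5 and 6 above every CD library. Over all 32 beta-defensins tested, of 43 listed, 22 were positive and 10 negative, and the median was 0.30, or 0.10 without HFD 3. Negative values included Defb30 at -0.41 ± 0.42 and Defb12 at -0.56 ± 0.75, and CD 2 held the highest level of each.

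Cystatins, inhibitors of cysteine proteases, had 6 genes tested of 13 listed, with a median of 1.19. Cst13 stood at 2.03, 3.73, 12.9 and 5.92 CPM in HFD 2, 3, 5 and 6 and at 0.907, 0.307, 3.92 and 1.10 CPM in CD 2, 4, 6 and 7, a log2 fold change of 1.96 ± 0.79. The cystatin median was 0.01 with Cst11, itself one of the 6, as a covariate. The 30 abundant duct genes of any region had 8 positive and 22 negative values and a median of -0.09, which was 0.08 without CD 2 and 0.01 without HFD 5. Among them Cd52, a glycoprotein passed onto sperm, stood at 2612, 4456, 2707 and 1965 CPM in HFD and at 1805, 2762, 1879 and 2590 CPM in CD. For neither list did a gene pass the adjusted threshold. Clear, narrow and basal cells, which acidify and line the duct, had 16 genes tested, with 5 positive and a median of -0.11, which was 0.03 without CD 7.

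Most genes of the germ cell lists had positive values. Of the 50 late spermatid genes other than Prm1, all tested, 42 were positive and 8 negative, with a median of 0.44, and 0 passed the adjusted threshold in edgeR. Spata19, a mitochondrial protein of the sperm midpiece, had the smallest p, with 20.9, 48.5, 73.6 and 50.5 CPM in HFD 2, 3, 5 and 6 and 13.4, 15.1, 47.6 and 21.9 CPM in CD 2, 4, 6 and 7. Its log2 fold change was 0.98 ± 0.44. Prm2, the second protamine, stood at 435, 832, 1569 and 723 CPM in HFD and at 196, 455, 1123 and 215 CPM in CD. Tnp1, a transition protein, stood at 122, 364, 657 and 269 CPM in HFD and at 70.9, 91.8, 344 and 83.2 CPM in CD. In each of these genes CD 6 lay within the HFD range. The list median was 1.10 without CD 6, 0.24 without CD 2 and -0.04 with Cst11 as a covariate. Meiotic genes had 18 positive of 21 tested and a median of 0.34, which was 0.92 without CD 6 and 0.17 without CD 2, and the synaptonemal complex gene Sycp3 had 1.10 ± 0.53.

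Of 19 leukocyte markers tested, 14 were positive, with a median of 0.38. Leaving out CD 2, CD 7 or HFD 5 gave 0.10, 0.13 and 0.16, and leaving out HFD 2 or CD 6 gave 0.57 and 0.72. The macrophage and granulocyte lysozyme Lyz2 stood at 193, 526, 482 and 694 CPM in HFD 2, 3, 5 and 6 and at 116, 266, 386 and 206 CPM in CD 2, 4, 6 and 7, a log2 fold change of 0.96 ± 0.39. HFD 2 was the low HFD library and CD 6 the high CD library. With Cst11 as a covariate Lyz2 was at 0.27 and the list median at -0.51, and with the late spermatid sum they were at 0.35 and -0.38. Inflammatory cytokine and NF-kB genes had 10 positive of 15 tested and a median of 0.16, which was -0.17 without HFD 5. Icam1, an adhesion molecule, stood at 1.66, 0.678, 3.12 and 1.54 CPM in HFD and at 2.07, 7.37, 6.996 and 3.28 CPM in CD, a log2 fold change of -1.48 ± 0.66. The part of leukocyte RNA in these values was not tested.

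Genes of metabolism had small values. The insulin, leptin and energy sensing list had 1 positive and 25 negative of 26 tested, with a median of -0.14 (all genes -0.02), and 0 passed the adjusted threshold in edgeR or an unadjusted p of 0.05. Leaving out 1 library at a time gave medians from -0.19 without CD 2 to -0.08 without CD 4, and the Cst11 and late spermatid covariates -0.15 and -0.16. Mtor, the kinase that couples nutrients to growth, stood at 183, 177, 145 and 170 CPM in HFD 2, 3, 5 and 6 and at 204, 207, 221 and 212 CPM in CD 2, 4, 6 and 7. Its diets did not overlap, and the log2 fold change was -0.33 ± 0.16 (edgeR unadjusted p = 0.0560, adjusted p = 0.999). In the 8 libraries outside the rule Mtor was at 0.47 ± 0.24, and the difference of -0.78 had an unadjusted p of 0.0313 and an adjusted p of 0.911 in edgeR. Tsc1, an inhibitor of Mtor named after its values were seen, stood at 81.2, 76.9, 84.6 and 79.8 CPM in HFD and at 105, 99.8, 94.0 and 86.2 CPM in CD, also without overlap. Fatty acid oxidation genes had 9 positive and 19 negative of 28 tested and a median of -0.14. Sterol and fat synthesis genes had 14 positive and 28 negative of 42 tested and a median of -0.06, with Acly, which supplies acetyl-CoA for fat synthesis, at -0.46 ± 0.22.

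Housekeeping and stress lists had medians close to or slightly below that of all genes. Cytosolic ribosomal protein genes had 17 positive and 61 negative of 78 tested and a median of -0.10, which was -0.02 without HFD 5. Rps14 stood at 190, 171, 212 and 194 CPM in HFD 2, 3, 5 and 6 and at 160, 427, 357 and 338 CPM in CD 2, 4, 6 and 7, a log2 fold change of -0.74 ± 0.25. CD 2 lay below all HFD libraries, and without it the value was -0.96 (edgeR adjusted p = 0.688). Heat shock and endoplasmic reticulum stress genes had 5 positive and 23 negative of 28 tested and a median of -0.12, which was 0.02 without CD 2 and -0.02 without HFD 3. Atf6, a sensor of unfolded proteins, stood at 128, 135, 127 and 122 CPM in HFD and at 162, 189, 140 and 165 CPM in CD, without overlap, a log2 fold change of -0.36 ± 0.16. Oxidative phosphorylation genes encoded in the nucleus had a median of -0.04 over 77 tested, which was 0.02 without HFD 5. Proteasome genes had -0.05 over 38, which was 0.15 without CD 2.

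Of 40 DNA methylation and histone modifier genes tested, 10 were positive and 30 negative, with a median of -0.10. In 2 of them the diets did not overlap, 1 in each direction (over all genes 0.742% higher and 1.52% lower). The histone acetyltransferase Kat8 was higher in HFD, with 32.9, 61.3, 37.4 and 34.5 CPM in HFD 2, 3, 5 and 6 and 27.4, 21.5, 31.3 and 22.2 CPM in CD 2, 4, 6 and 7, a log2 fold change of 0.69 ± 0.27, or 0.44 without HFD 3. The histone acetyltransferase Ep300, named after its values were seen, was lower, with 207, 232, 194 and 225 CPM in HFD and 243, 236, 252 and 264 CPM in CD, a log2 fold change of -0.21 ± 0.15. Small RNA processing genes had a median of -0.16 over 17 tested, imprinted genes -0.04 over 18, and antioxidant genes 0.00 over 33. In the antioxidant list Gpx6, a relative of Gpx5, stood at 17.0, 13.2, 60.0 and 37.3 CPM in HFD and at 15.8, 17.5, 9.79 and 14.5 CPM in CD, a log2 fold change of 1.14 ± 0.44, with only HFD 5 and 6 above every CD library. The estrogen receptor Esr1 stood at 22.6, 19.3, 26.9 and 37.1 CPM in HFD and at 43.7, 45.5, 38.1 and 33.7 CPM in CD, a log2 fold change of -0.60 ± 0.26. Each of these genes had an adjusted p of 0.999 in edgeR. Olfactory receptors, listed as a negative control, had 5 genes tested of 1122 listed, 4 of them positive, with a median of 0.78. Their sums were 53.2 to 94.5 CPM of the gene total in the HFD members and 29.8 to 71.7 CPM in the CD members. They were 172 and 174 CPM in HFD 4 and HFD 8, the libraries with the highest late spermatid sums. The list can therefore not be read as a negative control here.

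**Figure D4:**
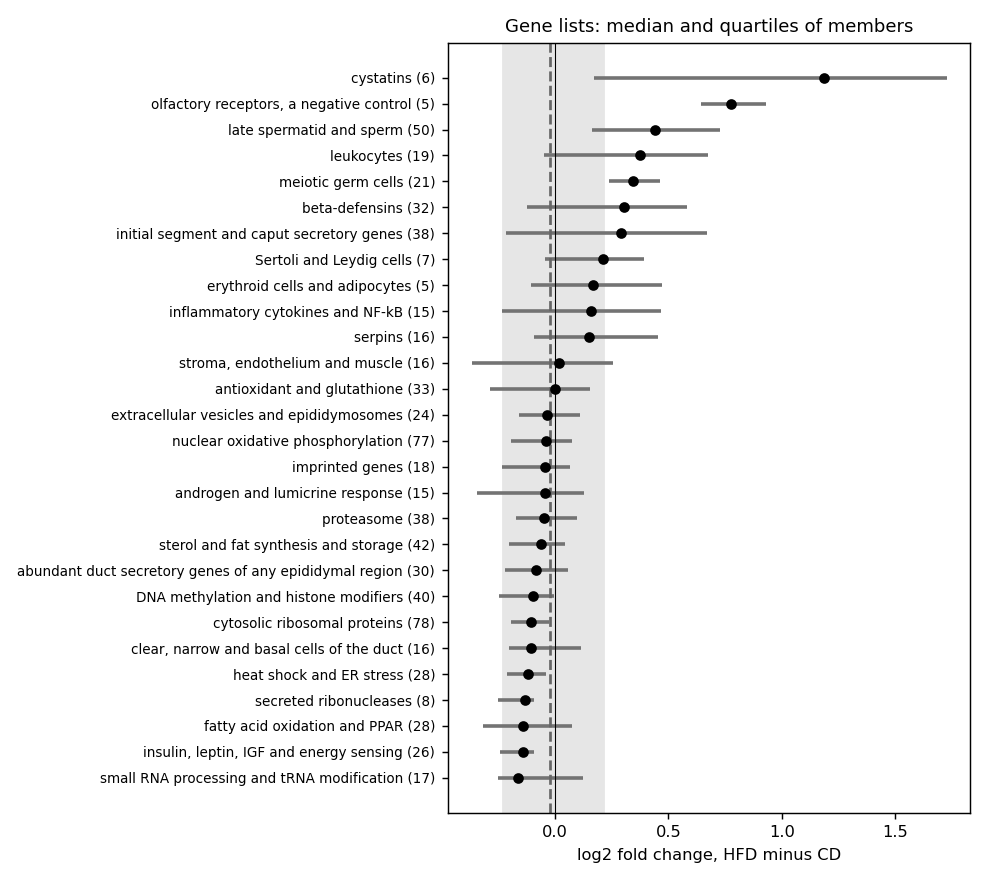
Median (point) and quartiles (bar) of the log2 fold change, HFD minus CD, over the tested genes of each list with at least 5, whose number stands in parentheses. The dashed line and the grey band are the median of -0.02 and the quartiles of all 13201 genes. Cystatins, olfactory receptors and late spermatid genes lie farthest to the right, and no gene of any list passed the adjusted threshold in edgeR.

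Finally, the diet difference of the Gpx5-rich libraries was set against that of the 8 libraries outside the rule, in 1 fit of all 16. EdgeR called 0 of 14476 genes (0%) for a difference between them, and the smallest adjusted p was 0.911. DESeq2 and limma-voom also called 0. At an unadjusted p under 0.05, 129 genes had a higher and 423 a lower diet difference in the Gpx5-rich libraries. In the same fit, 148 genes had an unadjusted p under 0.05 for diet in the Gpx5-rich libraries, 86 higher and 62 lower, and 2300 in the others, 2018 higher and 282 lower. The others included HFD 4 and HFD 8, with late spermatid sums of 32660 and 56151 CPM against 3723 to 15053 CPM in the other 6. Neither set had a gene past the adjusted threshold.

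The 23 genes were picked by their p inside the rule, so only the values outside are independent of that choice. The contrast outside was itself mostly positive among genes with a small p. Apoh, Rnf26 and Spag11b were also known from earlier results of these data, so their values outside are not an independent check. Of the 23 genes, 19 had the same sign outside and 4 the opposite sign, but some of the 19 had outside values smaller than their SE. Slc6a19 was at 2.14 inside and 0.07 ± 0.71 outside, Idua at -1.45 and -0.01 ± 0.50, and Trf at 1.01 and 0.20 ± 0.31. Among spermatid genes, Izumo2 was at 1.39 ± 0.89 inside and 2.85 ± 0.90 outside, Calr3 at 2.25 and 2.60, and Ccin at 2.28 and 1.86. Apoh was at 2.30 inside and 3.19 ± 0.76 outside, and Rnf26 at -1.20 and -0.76 ± 0.37. Spag11b was at 3.86 inside and 5.64 ± 1.56 outside, where HFD 8 alone held 545 CPM of it. Ctnna2 was at 0.95 inside and -0.53 ± 0.35 outside, Ednrb at 1.78 and -0.13 ± 0.47, and Psme1 at -0.89 and 0.18 ± 0.30. These 3 genes had an unadjusted p under 0.05 for the difference, 0.00808, 0.0111 and 0.0207 in edgeR, with an adjusted p of 0.911 each.

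**Figure D5:**
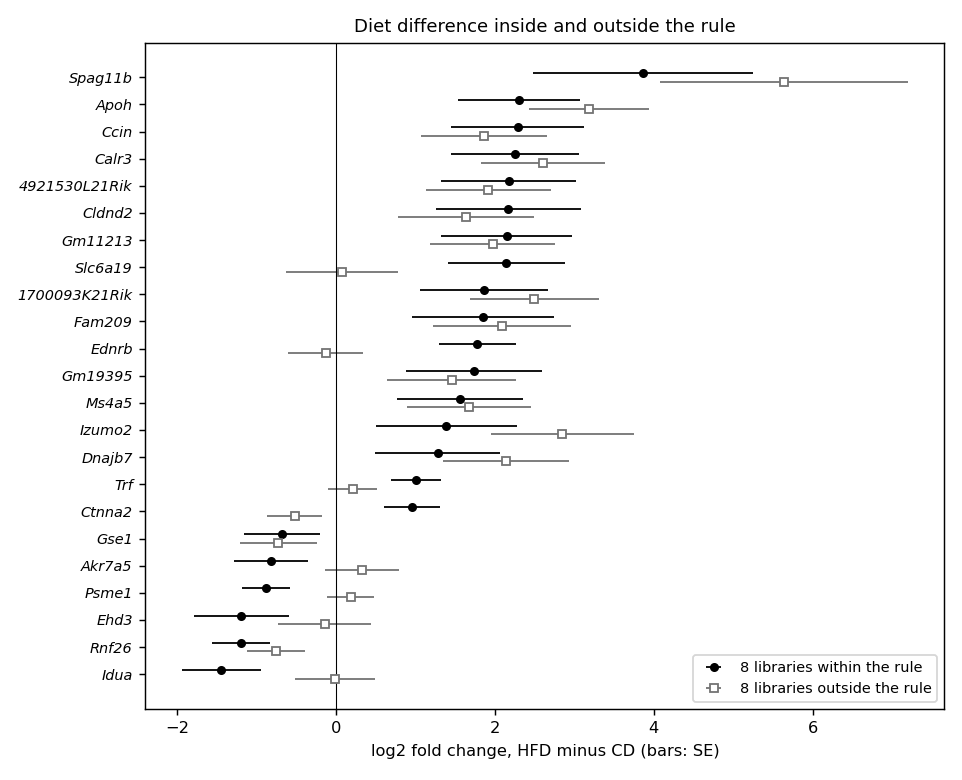
Log2 fold change, HFD minus CD, of the 23 genes in the 8 Gpx5-rich libraries (filled) and the 8 libraries outside the rule (open), from 1 edgeR fit of all 16, with bars of 1 SE. Izumo2, Calr3, Ccin, Apoh and Spag11b lie to the right in both sets, and Ctnna2, Ednrb, Akr7a5 and Psme1 have opposite signs.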

How the data were processed

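The members and the gene lists were chosen with earlier results of these data known. The authors deposited raw read counts per gene symbol, 1 column per library and without normalisation. Per the submitters' processing notes, the mm10 build was used with STAR, DESeq2 1.0.19 and HTSeq 1.0.0, whose roles and order are not stated there. Annotation and strand setting were not given in the sources used here. Besides 24062 gene rows the table has 5 summary rows, which entered neither library sizes nor tests. GENCODE M21 or RefSeq for GRCm38 matched 22977 symbols, and 84 of 85 named genes matched 1 GENCODE gene.

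The diet comparison used edgeR 4.0.16 under R 4.3.3 (quasi-likelihood F-test, robust, TMM factors, default filter by diet, diet as the sole term, two-sided), with Benjamini-Hochberg adjustment over 13201 genes and a threshold of 0.05. The step was also run on simulated counts, drawn independently for each gene and library. They lacked the division of libraries seen here, so that run does not show how the test behaves on these data. The difference between libraries inside and outside the rule was a contrast of 4 groups over 14476 genes. P-values measure the spread between these libraries, taken as separate males. Single genes are in edgeR's TMM-scaled CPM, and list sums, Gpx5 and the caput levels in CPM of each library's gene total, so the scales differ. Composition was tested on log2(CPM + 1), Rn45s and assigned reads in percent, by exact permutation over 70 assignments, and the profile on log2 CPM with a prior count of 2. Pairs of libraries of 1 diet gave chi-square values of 12.7 to 129 per degree of freedom over 12 pairs, so no library repeated another of its diet. Pairs across the diets were not examined.

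Named genes were those past the threshold or, with fewer than 20, the 24 with the smallest p (1 of which is not reported here), the 10 most abundant as levels, the gene with the smallest p of each of the 29 lists, 6 genes known from earlier results (Spag11a, Spag11b, Apoh, Rnf26, Pbld2 and Zfp641), the 6 with the smallest p for the difference, and Gpx5, Prm1, Prm2 and Tnp1 as levels. Gpx5 and Prm1 were not tested by themselves and were left out of every list. Alternatives covered DESeq2 1.42.0, limma-voom (limma 3.58.1), scaling, filters, Rn45s, the title number as a block, covariates, the limits of the rule and each library left out. The Cst11 covariate, and the late spermatid covariate for lists, were added after the data were seen.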

Additional observations from a re-analysis of the deposited data

Results flagged for a closer look

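Among 124 groups of 4 libraries examined, 5 held 1 library that stood far from the other 3. That share is no larger than the about 1 group in 20 that chance alone marks. CD 6 was that library in 3 of the 5, which are not all separate, since Tnp1 belongs to the late spermatid sum. Its late spermatid sum without Prm1 was 11186 CPM of the gene total against 2893 to 3647 CPM in CD 2, 4 and 7. Its Tnp1 level was 344 TMM-scaled CPM against 70.9 to 91.8. Spag11b was at 46.7 CPM in CD 6 against 11.3 to 15.3 CPM. Kat8 was at 61.3 CPM in HFD 3 against 32.9 to 37.4 CPM in HFD 2, 5 and 6. The gene total of CD 2 was 7783981 counts against 3541495 to 3599532 in CD 4, 6 and 7.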

How the results depend on the processing

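Every alternative except 2 left 0 genes past the adjusted threshold for diet: DESeq2 called 1 (Ehd3), and the title number as a replicate block called 4 (Spag11b at 3.27 with an adjusted p of 7.88e-05, Abca4, Gm16063 and Snhg11, the last 3 named after their values were seen). Only numbers 2 and 6 occur in both diets, and the deviations of the same-numbered libraries correlated at 0.43 and 0.06, so the numbers do not establish pairs. The diet value of the block fit thus rests on HFD 2, CD 2, HFD 6 and CD 6. HFD 3, HFD 5, CD 4 and CD 7 each stand alone in their number and add nothing to it. Its p-values are therefore not those of a comparison of all member libraries. Genes higher in HFD at an unadjusted p under 0.05, 233 in the fit reported, numbered 773 with limma-voom, 461 without a low-count filter, 134 with the replicate block, 350 with the caput sum as a covariate, 711 with the Gpx5 limit alone, 577 with all libraries but HFD 8, 1338 with all 16, and 171 to 1031 with 1 library left out (385 without HFD 2, 1031 without CD 6). Lower genes, 194 in the fit reported, numbered 433 with limma-voom, 115 with gene-total scaling, 354 without a filter, 117 with a filter at 5 CPM, 111 with the replicate block, 292 and 342 with the caput or late spermatid sum as a covariate, 91 with the Gpx5 limit alone, 112 with all but HFD 8, and 97 to 320 with 1 library left out (120 without HFD 5, 102 without CD 4, 97 without CD 7, 320 without CD 6). The difference inside against outside the rule, 552 genes at an unadjusted p under 0.05, gave 988 without a filter, 77 with the replicate block, 910 with DESeq2, 1096 with limma-voom and 345 (without CD 6) to 529 with 1 library left out. Of the 40 genes followed, 37 kept their sign throughout. Mtor turned to 0.0052 and 0.13, and Ndufa9, a subunit of respiratory complex I, to 0.011 and 0.20, with the Gpx5 limit alone and with all 16 libraries. Spag11a turned to 0.091 with the replicate block, 0.029 with the late spermatid covariate and 0.026 with all but HFD 8. List medians with Cst11 as a covariate were -0.047 for caput, 0.011 for cystatins, 0.19 for clear and basal cells, -0.51 for leukocytes and 0.053 for small RNA genes. With the late spermatid sum they were 0.33 for abundant duct genes, 0.32 for cystatins, 0.15 for clear and basal cells, -0.38 for leukocytes, -0.17 for chromatin, -0.21 for imprinted and 0.043 for small RNA genes. With 1 library left out they ranged from 0.0062 to 0.34 for caput, 0.88 to 2.07 for cystatins, -0.17 to 0.25 for inflammation, -0.17 to -0.060 for chromatin, -0.21 to -0.045 for small RNA genes and 0.41 to 0.78 for olfactory receptors. In composition, the clear and basal cell difference of 0.01 was -0.037 with TMM scaling and -0.13, -0.14 and -0.22 with the Gpx5 limit alone, all but HFD 8, and all 16. Under the last 3 rules the abundant duct difference of 0.07 was -0.45, -0.15 and -0.44, and that of the Rn45s share of 0.083 points was -1.29, -1.62 and -2.35. With 1 library left out these 3 ranged from -0.060 to 0.095, -0.16 to 0.25 and -3.47 to 2.65, and those of stroma from -0.039 to 0.47, caput from -0.38 to 0.091, assigned reads from -2.05 to 1.04 points and meiotic genes from 0.41 to 1.02. The cause of these shifts was not tested.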
